A study of Mus musculus with 6 samples.

Results

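The genes described here code for glycosyltransferases, most of them Golgi enzymes, that start, branch, lengthen and cap the sugar chains of glycoproteins and glycolipids. They were taken from the deposited count table by symbol: numbered Galnt, Fut, Mgat and Gcnt genes and every symbol that begins with B3gnt, B4galt, B3galt, St3gal, St6gal or St8sia. The rule found 81 of 23478 rows. One of them, St8sia3os, is a non-coding antisense transcript that the rule takes in by its name. RNA was measured in 6 libraries of mouse tracheal cells at embryonic day 13.5, with 3 libraries of epithelium, sorted by an antibody to the surface protein Epcam, and 3 of muscle, sorted by green fluorescent protein (GFP). All 6 came from embryos labelled Bmp4 f/f; gamma SMA eGFP, in which a gamma smooth muscle actin reporter marks the muscle. The labels name no Cre and no treatment, call the samples controls, and do not say how many embryos stand behind a library.

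Mucin-type O-glycans begin when a Galnt enzyme puts N-acetylgalactosamine (GalNAc) on a serine or threonine. Gcnt enzymes branch these chains, Mgat enzymes branch the N-glycans of asparagine, and the B3gnt and B4galt enzymes add N-acetylglucosamine and galactose in turn to build lactosamine chains. Fut enzymes add fucose, and the sialyltransferases end a chain with sialic acid in a linkage set by the enzyme: St3gal and St6gal on galactose, St6galnac on GalNAc, St8sia on another sialic acid. In airway epithelium such chains are known from mucins and cell-surface glycoproteins, and in other tissues they are known as ligands of lectins and as regulators of adhesion.

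Of the 81 rows, 78 had enough counts to be tested. At an adjusted p under 0.05, 18 of the 78 (23.1%) differed: Galnt3, Gcnt2, B3gnt2, B3gnt7 and St3gal5 were higher in epithelium, and Galnt16, Galnt2, B3gnt1, Fut8, Fut10, St3gal1, St3gal4, St6gal1, St6galnac3, St6galnac4, St6galnac6, St8sia2 and St8sia4 were higher in muscle. Among all 19375 genes tested, 10.7% passed the same threshold, 4.11% higher in epithelium and 6.58% higher in muscle, against 6.41% and 16.7% of the tested members. The median log2 fold change of epithelium over muscle was -0.27 over the tested members and 0.10 over all tested genes. The values of the 3 libraries of a group lay wholly above or below those of the other group for 38 members (48.7%), and for 26.9% of all tested genes. Adjusted p is the Benjamini-Hochberg value of edgeR's two-sided quasi-likelihood test over all tested genes, and a positive log2 fold change means higher in epithelium. Levels are CPM, counts scaled to a common library total with edgeR's TMM factors, and are listed in the order of replicates 1, 2 and 3. GENCODE M21 places other genes over 11% of the exonic bases of Gcnt2, 12.6% of B3gnt7 and 14.1% of St3gal4, on the opposite strand, and the library kit keeps no strand. In bulk libraries like these, fewer cells of a type and less RNA per cell cannot be told apart.

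**Figure D1:**
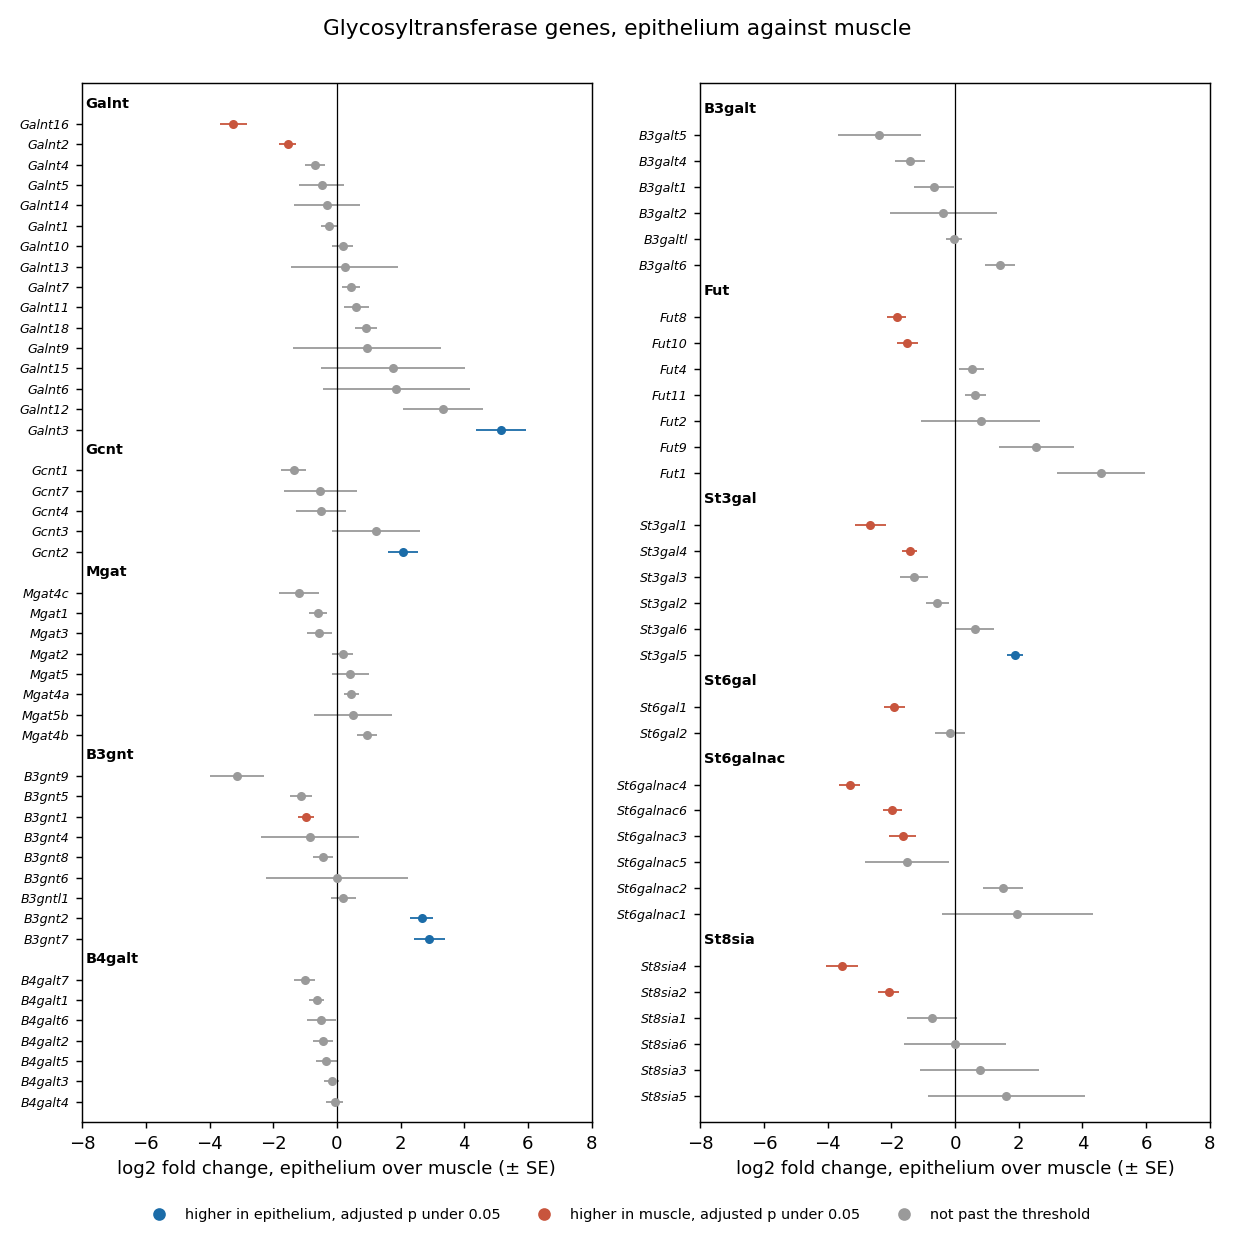
Log2 fold change of epithelium over muscle with its SE (x axis) for the 78 tested genes, by family (y axis). Blue points passed the threshold higher in epithelium (5), red points higher in muscle (13), and the 60 grey points did not pass it.

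Total counts ran from 11847432 to 54848820 per library. Sort markers followed the labels. Epcam was at 598 ± 96.9 CPM in epithelium and 1.53 ± 0.797 CPM in muscle (SD, n = 3 each), and Actg2, the smooth muscle gamma actin, at 2.17 ± 0.496 and 1876 ± 1287 CPM. All 15 epithelial markers were higher in epithelium and all 10 smooth muscle markers higher in muscle. Muscle 2 stood apart, with smooth muscle markers summing to 4391 CPM against 17911 and 19292 CPM in muscle 1 and muscle 3. It was also the lowest muscle library for 10 of the 13 members higher in muscle, all but Fut10, St3gal4 and St6gal1; the part of its make-up in those levels was not tested. Cartilage markers summed to 1009 to 1591 CPM in muscle and 363 to 660 CPM in epithelium, and 4 of 9 passed as higher in muscle; their part in the genes higher in muscle was not tested. None of the 6 endothelial, 5 immune or 7 neural and glial markers tested passed, which does not show that such cells were absent. Endothelial markers summed to 39.2 to 58.0 CPM in muscle and 1.17 to 49.5 CPM in epithelium. Immune markers summed to 2.58 to 38.5 and 3.74 to 38.3 CPM, and neural and glial markers to 21.9 to 50.4 and 25.6 to 62.2 CPM. The part of such cells in the levels was not tested. Of 5 tested genes on a list made for oesophageal cells, Trp63 and Klf5 were higher in epithelium. Whether these genes mark oesophagus alone at this stage was not tested, so they do not show that oesophageal cells were present. The list summed to 189 to 260 CPM in epithelium and 2.50 to 11.5 CPM in muscle. The part of such cells in the genes higher in epithelium was not tested. An identifier row in the file header holds numbers that may be dates: muscle 2 and epithelium 2 share 1 of them and the other 4 libraries share another, and the header does not say what they stand for. Muscle 2, epithelium 2 and epithelium 3 had counts in 73.4% to 78.8% of 1449 olfactory and vomeronasal receptor genes, which neither cell type is known for, against 2.90% to 17.4% in the other 3 libraries. Mean levels of these genes were at most 0.979 CPM. Likewise 14 members (17.9% of those tested, against 28.4% of all tested genes) were higher in each of those 3 libraries than in each of the other 3; 13 of the 14 had an average log2 CPM under 2, and none passed the threshold.

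Among the Galnt genes, which start O-glycans, 1 passed as higher in epithelium and 2 as higher in muscle. Galnt3, an enzyme known for glycosylating the hormone FGF23, was at 0.836, 3.25 and 0.253 CPM in muscle and at 42.6, 47.7 and 58.1 CPM in epithelium. The groups were far apart, and muscle held only 22, 65 and 10 counts. The gene spans 66082766 to 66124994 on the minus strand of chromosome 2 (GRCm38). Galnt3's log2 fold change came to 5.16 (SE 0.79, adjusted p = 0.0038), and 6.55 without muscle 2, the muscle library with the most Galnt3.

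Galnt16 had the opposite pattern, at 212, 71.3 and 184 CPM in muscle and 19.6, 16 and 13.5 CPM in epithelium (log2 fold change -3.25, SE 0.42, adjusted p = 0.0016). The gene spans 80518277 to 80630972 on the plus strand of chromosome 12. Muscle 2, the library low in smooth muscle markers, was also the lowest muscle library here, and remained above all epithelium libraries. Without it the log2 fold change was -3.60. Galnt2, a member with broad substrate range, was at 126, 113 and 174 CPM in muscle and 47.5, 54.3 and 39.7 CPM in epithelium (log2 fold change -1.55, SE 0.26, adjusted p = 0.0057). Here muscle 2 lay close to muscle 1. Galnt2 spans positions 124231391 to 124345724 of chromosome 8 (GRCm38, plus strand), and 90.0% of its exonic bases are shared in GENCODE M21 with Gm20388 or 1810008B01Rik, which have no row of their own in the table, so the reads of these genes cannot be told apart.

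The other 13 Galnt genes did not pass, with log2 fold changes from -0.70 to 3.33. Galnt12 showed the widest gap among them, at 0.076, 1.5 and 0.303 CPM in muscle and 7.55, 7.75 and 3.57 CPM in epithelium (log2 fold change 3.33, SE 1.24, adjusted p = 0.14). The groups did not overlap, and the gene passed without muscle 2 (4.98, adjusted p = 0.023). Galnt18, at 52.5 ± 24.9 CPM in muscle and 99.1 ± 14.4 CPM in epithelium (SD, n = 3 each), was 0.92 higher in epithelium on the log2 scale (adjusted p = 0.16). Galnt18 passed with DESeq2, with library size scaling alone, with genes under a mean log2 CPM of 2 left out, and with the header identifier as a term. Levels of different genes were compared as CPM per kilobase of annotated exon. On that scale Galnt18 was the leading Galnt transcript in epithelium, with 39.8% ± 5.4 of the family total, followed by Galnt3 (11.7% ± 1.6) and Galnt2 (11.4% ± 1.8). In muscle Galnt2 led with 31.2% ± 4.8, then Galnt18 with 19% ± 6.5 and Galnt16 with 17.8% ± 6.0, while Galnt3 made up 0.39% ± 0.49 (SD, n = 3 each). The summed family level was 96.5 ± 3.5 CPM per kb in epithelium and 104 ± 22.0 in muscle, and the libraries of the 2 groups overlapped.

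Of the Gcnt genes, Gcnt2, the enzyme that makes the branches of the blood group I antigen on lactosamine chains, was higher in epithelium. It stood at 5.44, 13.8 and 5.26 CPM in muscle and 20.7, 48.5 and 34.4 CPM in epithelium (log2 fold change 2.08, SE 0.47, adjusted p = 0.022). The groups were separate, with muscle 2 nearest to epithelium 1. The call was lost on leaving out muscle 1, muscle 3, epithelium 2 or epithelium 3 (adjusted p from 0.061 to 0.066) and with library size scaling alone (0.059). Gcnt1, which makes the core 2 branch of O-glycans, was at 31.5, 27.1 and 29.9 CPM in muscle and 6.73, 19.4 and 8.71 CPM in epithelium and did not pass (log2 fold change -1.35, SE 0.39, adjusted p = 0.064). Epithelium 2, one of the libraries with many receptor gene counts, was the high one, and without it the value was -1.89 (adjusted p = 0.0030). Per kilobase, Gcnt2 made up 52.0% ± 4.8 of the Gcnt total in epithelium and 12.4% ± 5.1 in muscle, and Gcnt1 20.5% ± 2.9 and 59.0% ± 13.3. Gcnt4 (-0.50) and the remaining Gcnt genes did not pass.

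None of the 8 Mgat genes passed, at log2 fold changes from -1.18 to 0.95, and 1 of them had an unadjusted p under 0.05. Mgat1, which opens the path to hybrid and complex N-glycans, was at 154 ± 28.7 CPM in muscle and 102 ± 24.8 CPM in epithelium (log2 fold change -0.59, SE 0.27, adjusted p = 0.26), and passed with the header identifier as a term (-0.61, adjusted p = 0.017). Mgat2, which acts next, was at 60.1, 91.3 and 149 CPM in muscle and at 114 CPM in each epithelium library (0.19, SE 0.33, adjusted p = 0.90), so the muscle values lay on both sides of the epithelial ones. Mgat3, which adds the bisecting N-acetylglucosamine, was at -0.56 on the log2 scale (SE 0.39, adjusted p = 0.55). Groups of 5 of the 8 Mgat genes did not overlap, against 26.9% of all tested genes. Of these, Mgat1 and Mgat4c were higher in muscle, and Mgat4a, Mgat4b and Mgat5 in epithelium. Mgat4b, the 1 with an unadjusted p under 0.05, was at 10.5 ± 2.56 CPM in muscle and 20.2 ± 1.48 CPM in epithelium (0.95, SE 0.30, adjusted p = 0.086). It passed with DESeq2, with library size scaling alone and with genes under a mean log2 CPM of 2 left out.

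Of 9 tested B3gnt genes, which extend chains with N-acetylglucosamine, 2 were higher in epithelium, 1 was higher in muscle and 6 did not pass. B3gnt2, a main polylactosamine synthase, was at 7.15, 6.49 and 14.2 CPM in muscle and 56.9, 71.8 and 48.5 CPM in epithelium (log2 fold change 2.66, SE 0.36, adjusted p = 0.0020). B3gnt7, which acts on keratan sulfate and lactosamine chains, was at 8.67, 2.50 and 3.44 CPM in muscle and 47.3, 25.5 and 36.5 CPM in epithelium (2.90, SE 0.49, adjusted p = 0.0058). Every epithelium library was above every muscle library for both genes, and for B3gnt7 the log2 fold change was 3.60 without muscle 1, the highest muscle library. B3gnt2 lies at 22759738 to 22860961 on the minus strand of chromosome 11, and 66.0% of its exonic bases are shared with Gm12057, Gm28048 or 9130230N09Rik, none of which is a row of the table.

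A row named B3gnt1 was higher in muscle by a small margin, at 146, 104 and 151 CPM in muscle and 73.1, 52.2 and 79.7 CPM in epithelium (log2 fold change -0.97, SE 0.26, adjusted p = 0.049). RefSeq lists B3gnt1 as an older name of both B3gnt2 and B4gat1; the table has a B3gnt2 row and no B4gat1 row, so the row is given by its symbol without a position or a role. The call was lost on leaving out any library other than muscle 2 (adjusted p from 0.087 to 0.19). B3gnt9 was at 53.7, 48.3 and 54.1 CPM in muscle and 1.10, 15.2 and 2.03 CPM in epithelium and just missed the threshold (-3.13, SE 0.86, adjusted p = 0.051). Epithelium 2 was again the high epithelium library, and without it the log2 fold change was -5.05 (adjusted p = 0.00011). Of its exonic bases, 16.5% are shared with the antisense gene D230025D16Rik, which the library kit cannot separate by strand. B3gnt5, which starts lacto-series glycolipids, was at 174, 67.4 and 137 CPM in muscle and 65.2, 46.5 and 61.3 CPM in epithelium (-1.13, SE 0.35, adjusted p = 0.079), with muscle 2 only just above epithelium 1. Without muscle 2 it passed (-1.44, adjusted p = 0.0055). Per kilobase and without B3gnt1, B3gnt2 held 31.8% ± 5.4 of the family total in epithelium and 4.0% ± 1.6 in muscle, B3gnt7 19.9% ± 5.6 and 2.0% ± 0.88, B3gnt5 25.1% ± 4.7 and 41.4% ± 8.0, and B3gnt9 5.4% ± 6.9 and 38.1% ± 8.9 (SD, n = 3 each).

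**Figure D2:**
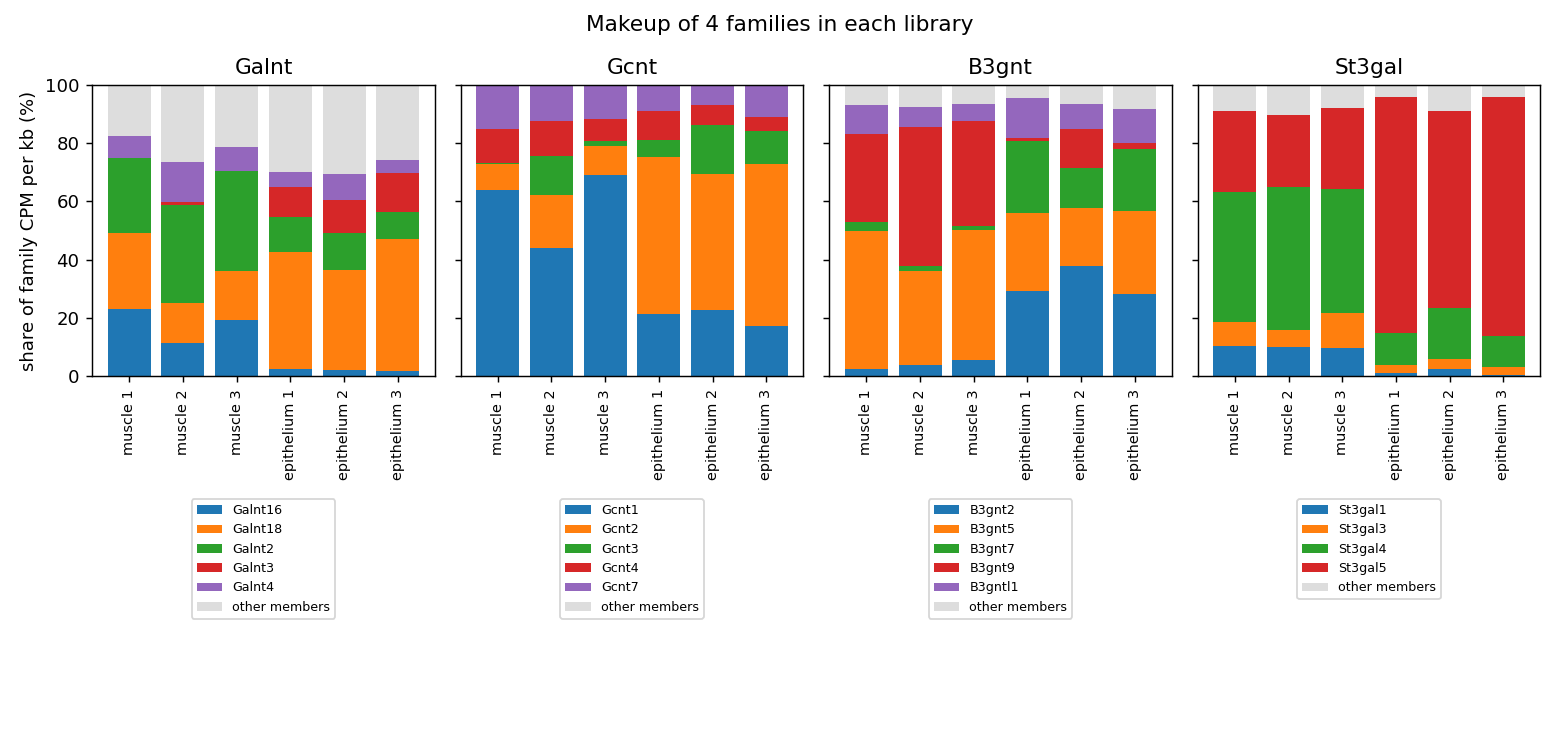
Share of each family's summed CPM per kilobase of exon (y axis, percent) taken by its main genes in each of the 6 libraries (x axis), for 4 families. Galnt18, Gcnt2, B3gnt2 and St3gal5 take larger shares in each epithelium library than in any muscle library, and Galnt2, Gcnt1, B3gnt9 and St3gal4 larger shares in muscle, with epithelium 2 closest to muscle for B3gnt9; B3gnt1 has no exon length and is left out.

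None of the 7 B4galt or 6 B3galt genes, the galactosyltransferases, passed; 2 of each had an unadjusted p under 0.05. B4galt1, which adds galactose to N-acetylglucosamine, was at 150, 136 and 195 CPM in muscle and 113, 87.6 and 110 CPM in epithelium (log2 fold change -0.63, SE 0.24, adjusted p = 0.16). Its groups did not overlap, and it passed with the header identifier as a term (-0.63, adjusted p = 0.026). B4galt3 differed by -0.16 (SE 0.23, adjusted p = 0.87). Neither B4galt7 nor B3galt6, which add galactose to the linker that carries glycosaminoglycan chains, passed. B4galt7 was at 79.7 ± 18.7 CPM in muscle and 39.5 ± 14.2 CPM in epithelium (-1.01, SE 0.33, adjusted p = 0.091), and passed without muscle 2 (-1.18, adjusted p = 0.046) or with the header identifier as a term (-1.06, adjusted p = 0.010). B3galt6 was at 16.3 ± 11 and 43.4 ± 17.5 CPM (1.41, SE 0.48, adjusted p = 0.11). It passed as higher in epithelium with DESeq2, with library size scaling alone and without muscle 3. B3galt4 was at 14.6 ± 3.63 CPM in muscle and 5.47 ± 2.61 CPM in epithelium (-1.41, SE 0.47, adjusted p = 0.10), and passed with the header identifier as a term. B3galt5, which makes type 1 chains, was at 26.0, 9.19 and 16.7 CPM in muscle and 0, 5.75 and 4.36 CPM in epithelium (-2.38, SE 1.31, adjusted p = 0.38). Its 0 in epithelium 1 is a count of 0, which allows a level of up to 0.0558 CPM if counts are independent, and both nonzero epithelium values came from libraries with many receptor gene counts. B3galtl, the older name of the glucosyltransferase B3glct, was level at 30.2 ± 4.49 and 29.4 ± 4.75 CPM (-0.04, SE 0.24, adjusted p = 0.97).

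Of the 8 Fut rows, Fut8 and Fut10 were higher in muscle. Fut8, which puts fucose on the core of N-glycans, was at 117, 60.8 and 95.4 CPM in muscle and 21.3, 32.7 and 22.4 CPM in epithelium (log2 fold change -1.84, SE 0.31, adjusted p = 0.0059). Fut10 was at 157, 98.8 and 63.5 CPM in muscle and 40.0, 34.2 and 38.5 CPM in epithelium (-1.50, SE 0.33, adjusted p = 0.020). Both kept the groups apart, but the Fut10 call was lost without muscle 1 (adjusted p = 0.059), epithelium 2 (0.056) or epithelium 3 (0.098). The Fut10 call was also lost when only muscle 1, muscle 3, epithelium 1 and epithelium 3, which share a header identifier, were kept.

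The other 5 Fut genes tested did not pass, at log2 fold changes from 0.52 to 4.59. Fut1, which makes the H antigen, was at 0, 0.399 and 0.506 CPM in muscle and 6.10, 10.4 and 5.63 CPM in epithelium (log2 fold change 4.59, SE 1.38, adjusted p = 0.071). Muscle held 0, 8 and 20 counts, and the 0 allows up to 0.114 CPM if counts are independent. Fut1 passed with DESeq2, the only alternative in which it did. Fut9, which makes the Lewis x structure, was at 0.228, 5.54 and 0.202 CPM in muscle and 10.2, 13.4 and 11.2 CPM in epithelium (2.55, SE 1.19, adjusted p = 0.26). Its muscle mean rested on muscle 2, and without that library the log2 fold change was 5.72 (adjusted p = 0.00083). Fut11, at 42.6 ± 18.4 and 66.4 ± 12.2 CPM, overlapped between groups (0.64, SE 0.32, adjusted p = 0.31), and led the family per kilobase in epithelium with 44.6% ± 6.0, against 22.5% ± 11.4 in muscle.

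Sialyltransferases held 9 of the 18 calls, among 6 St3gal, 2 St6gal, 6 St6galnac and 6 St8sia genes tested. Of all tested genes, 4.11% were higher in epithelium and 6.58% higher in muscle. St3gal5, which makes the ganglioside GM3 from which the complex gangliosides are built, was the 1 sialyltransferase higher in epithelium: it was at 40.4, 33.2 and 47.1 CPM in muscle and 149, 124 and 170 CPM in epithelium (log2 fold change 1.88, SE 0.25, adjusted p = 0.0019). St3gal5 spans 72097592 to 72154571 on the plus strand of chromosome 6. In the same family St3gal1 and St3gal4 were higher in muscle. St3gal1, which caps core 1 O-glycans, was at 38.9, 34.9 and 42.6 CPM in muscle and 4.87, 11.3 and 2.48 CPM in epithelium (-2.66, SE 0.50, adjusted p = 0.0095), and at -3.31 without epithelium 2, the highest epithelium library. St3gal4, which caps lactosamine, was at 71.8, 74.0 and 80.6 CPM in muscle and 23.2, 36.1 and 24.9 CPM in epithelium (-1.43, SE 0.25, adjusted p = 0.0067), a call that missed the threshold without epithelium 3 (adjusted p = 0.051). Per kilobase, St3gal5 made up 76.7% ± 8.0 of St3gal transcripts in epithelium and 26.8% ± 1.9 in muscle, and St3gal4 13.2% ± 3.8 and 45.4% ± 3.4.

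St6gal1, which puts sialic acid in alpha-2,6 linkage on the galactose of N-glycans, was at 165, 179 and 191 CPM in muscle and 71.8, 32.3 and 37.6 CPM in epithelium (log2 fold change -1.92, SE 0.33, adjusted p = 0.0065). Muscle libraries were close together and all above epithelium, of which replicate 1 was the highest. The gene spans 23224740 to 23360350 on the plus strand of chromosome 16. With muscle 2, epithelium 2 and epithelium 3 left out, which keeps only that 1 epithelium library, the value was -1.13 (adjusted p = 0.028). St6gal2 was low in both, at 8.84 ± 1.15 and 7.92 ± 2.81 CPM (-0.16, SE 0.46, adjusted p = 0.94).

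The St6galnac genes add sialic acid to GalNAc of O-glycans or gangliosides, and 3 of 6 passed as higher in muscle with none passing as higher in epithelium. St6galnac4 was at 121, 64.1 and 104 CPM in muscle and 10.04, 11.9 and 7.29 CPM in epithelium (log2 fold change -3.31, SE 0.33, adjusted p = 0.00058). St6galnac6 was at 37.2, 25.9 and 46.1 CPM in muscle and 10.8, 9.22 and 7.70 CPM in epithelium (-1.98, SE 0.30, adjusted p = 0.0034). These 2 genes are neighbours on the plus strand of chromosome 2 (GRCm38): St6galnac4 spans 32587095 to 32599698 and St6galnac6 begins at 32599709, so reads that run past the end of the first could be counted to the other. St6galnac3 was at 112, 39.9 and 75.2 CPM in muscle and 30.9, 13.8 and 27.6 CPM in epithelium (-1.65, SE 0.43, adjusted p = 0.039). Its lowest muscle library was muscle 2, and without muscle 1, muscle 3, epithelium 2 or epithelium 3 the call was lost (adjusted p from 0.076 to 0.13). St6galnac2 leaned the other way without passing, at 1.44, 6.04 and 3.79 CPM in muscle and 10.2, 14.4 and 7.44 CPM in epithelium (1.51, SE 0.64, adjusted p = 0.21). St6galnac1 had the higher mean in epithelium too (1.96, adjusted p = 0.83), but its groups overlapped. It was at 0, 2.60 and 0.0506 CPM in muscle and 0, 3.21 and 7.06 CPM in epithelium. St6galnac1 was among the 14 members higher in each of the libraries with many receptor gene counts than in each of the others. St6galnac5 had the higher mean in muscle, at 0.57 CPM per kb against 0.20 in epithelium, but its groups overlapped. It was at 1.04, 0.291 and 0.383 CPM per kb in muscle and 0.0310, 0.245 and 0.332 in epithelium.

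Both polysialyltransferases, St8sia2 and St8sia4, which build the long sialic acid chains known from the neural cell adhesion molecule, were higher in muscle. St8sia2 was at 305, 149 and 302 CPM in muscle and 68.4, 54.8 and 53.9 CPM in epithelium (log2 fold change -2.09, SE 0.32, adjusted p = 0.0038). St8sia4 was at 37.9, 13.8 and 21.7 CPM in muscle and 1.88, 3.07 and 1.35 CPM in epithelium (-3.55, SE 0.51, adjusted p = 0.0027). St8sia2 spans 73939119 to 74013690 on chromosome 7 and St8sia4 95587682 to 95667571 on chromosome 1, both on the minus strand. Muscle 2 was the lowest muscle library for both, as for St6galnac4, and each gene was still higher in it than in any epithelium library. Leaving muscle 2 out gave -2.37 for St8sia2, -3.85 for St8sia4 and -3.54 for St6galnac4. St8sia1, the GD3 synthase that acts on the product of St3gal5, was at 15.8, 6.59 and 8.22 CPM in muscle and 1.71, 13.6 and 3.19 CPM in epithelium, with overlapping groups (-0.73, SE 0.78, adjusted p = 0.79). The other 3 St8sia enzymes tested did not pass.

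**Figure D3:**
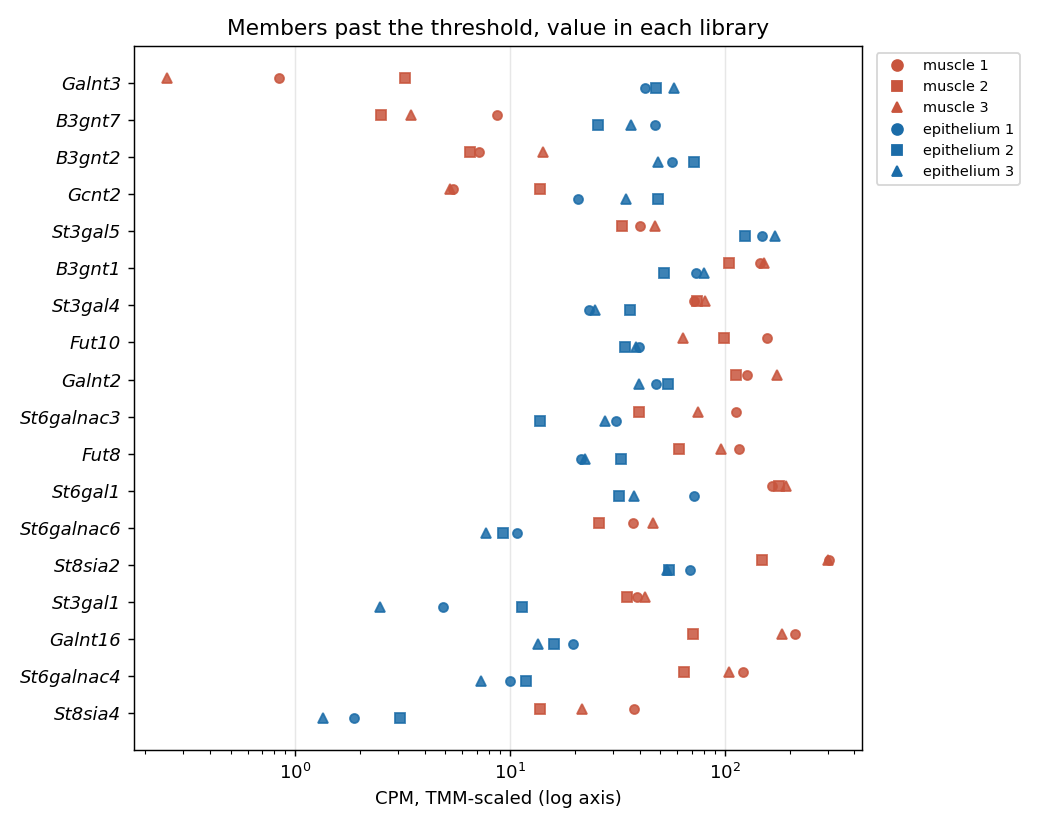
CPM on a log axis (x axis) of the 18 genes past the threshold (y axis) in each library, circles, squares and triangles for replicates 1, 2 and 3. The colours separate in every row; muscle 2 (red squares) is the lowest muscle library for 10 of the 13 genes higher in muscle.

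Summed by linkage class and per kilobase, alpha-2,3 sialyltransferase (St3gal) transcripts were at 55.2, 51.6 and 64.9 CPM per kb in muscle and 70.6, 70.0 and 79.4 in epithelium. The St6gal sum was 35, 37.4 and 40.1 in muscle and 16, 7.74 and 8.30 in epithelium. St6galnac transcripts summed to 39.9, 21.1 and 34.3 in muscle and 7.26, 6.87 and 9.08 in epithelium. That sum leaves out St6galnac2, whose symbol matched 2 annotated genes and whose mean was higher in epithelium (10.7 against 3.76 CPM). St8sia summed to 60.3, 30.02 and 58.1 in muscle and 13.1, 12.9 and 11.2 in epithelium, leaving out the non-coding St8sia3os, and St8sia2 alone made up 94.1% ± 2.2 and 88.6% ± 9.2 of it (SD, n = 3 each). No class overlapped between groups: the St3gal sum was the higher one in epithelium and the other 3 were higher in muscle. The St3gal sum rested on St3gal5: without that gene it was 39.8, 38.9 and 46.9 in muscle and 13.6, 22.7 and 14.4 in epithelium, lower in each epithelium library than in any muscle library. These sums are a description of chosen genes and carry no test. They also rest on annotated exon lengths, since the gene model used for counting is not given in the sources used here.

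**Figure D4:**
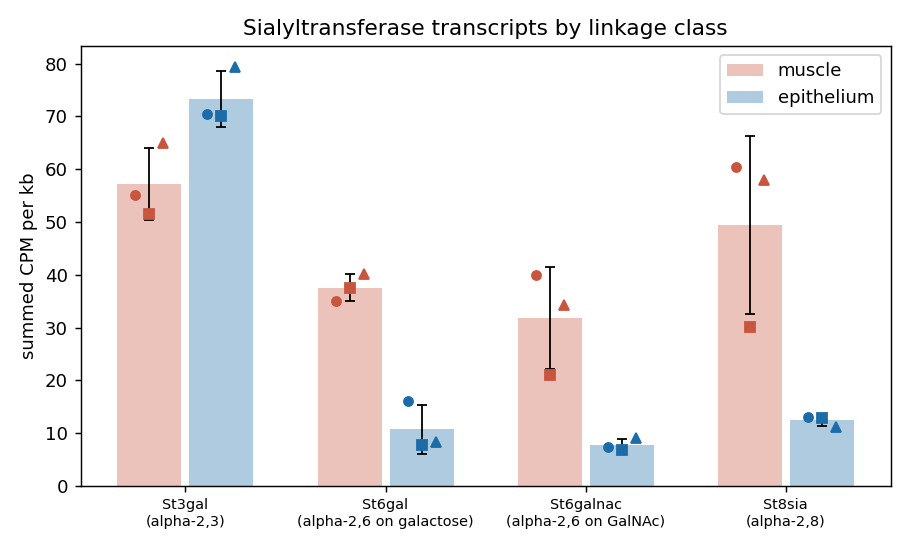
Summed CPM per kilobase (y axis) of the sialyltransferase genes of 4 linkage classes (x axis); bars are means, error bars the SD over 3 libraries, and symbols the libraries (circle, square and triangle for replicates 1, 2 and 3). Epithelium stands above muscle for St3gal (73.3 against 57.2) and below it for the other 3 classes, of which St6galnac leaves out St6galnac2. Without St3gal5 the St3gal sum was 16.9 in epithelium against 41.9 in muscle.

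Start-site sequence is shown for the sialyltransferase higher in epithelium and for 3 of those higher in muscle, to set genes of opposite pattern side by side; the 3 were chosen after their windows were seen. The letters are the bases before the start site in the RefSeq promoter windows (GRCm38.p6), read 5′ to 3′ on the strand of the gene with annotated exon bases left off. Capitals mark the GC box GGGCGG, the motif bound by Sp factors, or its reverse complement CCGCCC.
St3gal5, chr6:72097358-72097591, plus strand: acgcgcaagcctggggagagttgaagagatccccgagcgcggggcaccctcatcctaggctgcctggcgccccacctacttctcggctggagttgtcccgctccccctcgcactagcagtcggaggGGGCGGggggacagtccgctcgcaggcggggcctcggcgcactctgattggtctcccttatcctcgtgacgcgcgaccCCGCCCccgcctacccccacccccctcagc
St6galnac4, chr2:32586828-32587077, plus strand: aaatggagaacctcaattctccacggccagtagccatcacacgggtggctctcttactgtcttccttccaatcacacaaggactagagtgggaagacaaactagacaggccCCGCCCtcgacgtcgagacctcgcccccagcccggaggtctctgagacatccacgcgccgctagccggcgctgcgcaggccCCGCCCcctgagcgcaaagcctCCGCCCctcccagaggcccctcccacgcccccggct
St8sia2, chr7:74013691-74013932, minus strand: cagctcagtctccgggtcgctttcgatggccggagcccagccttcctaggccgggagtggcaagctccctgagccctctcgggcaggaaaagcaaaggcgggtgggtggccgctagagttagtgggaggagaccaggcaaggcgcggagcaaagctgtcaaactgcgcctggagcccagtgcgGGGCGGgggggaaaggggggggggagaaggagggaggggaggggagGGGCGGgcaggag
St8sia4, chr1:95667595-95667844, minus strand: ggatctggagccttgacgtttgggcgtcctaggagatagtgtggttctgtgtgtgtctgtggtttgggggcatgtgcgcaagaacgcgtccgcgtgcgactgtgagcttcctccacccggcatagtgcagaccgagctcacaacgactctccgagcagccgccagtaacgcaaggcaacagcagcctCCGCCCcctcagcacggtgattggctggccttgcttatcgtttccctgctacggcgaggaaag
St3gal5 had 2 GC boxes, St6galnac4 had 3, St8sia2 had 2 and St8sia4 had 1. Also higher in muscle, St6galnac3 had 1 and all 3 windows of St6gal1 held none. Annotated exons covered 240 of the 250 bases of the St6galnac6 window and all 250 of the St3gal4 window, so neither is compared on exon-free sequence. With exon bases kept, St3gal4 held a GC box and St6galnac6 did not. Of the 81 members, 57 matched windows, 83 in all. Of the 83 upstream stretches of 250 bases, 42 (50.6%) held a GC box on either strand, against 32.7% of 32851 windows of all genes. Member windows also had more G and C (median 59.6% against 52.4%) and more CG pairs (median 13 against 6) than all windows. The part of this base composition in the GC box share was not tested. A GC box was in 5 of 7 windows of members higher in epithelium and 6 of 16 of those higher in muscle. These windows belong to 5 and 9 genes, and Gcnt2, Fut8, Galnt16 and St6gal1 had several each, so the shares are not shares of genes. Each of the 5 genes had a box in at least 1 window. Of the 9, Galnt16, St6gal1 and the mostly exon-covered St6galnac6 had none. Galnt2, B3gnt1, Fut10 and St3gal1, also higher in muscle, matched no window. The motif CAAGTG of Nkx2 factors was in 12.05% of member windows and 11.6% of all windows, and TGTTTAC of Fox factors in 2.4% and 3.2%. AACCGGTT of Grhl factors was in 0 of the 83 windows, CTTTGAT of Tcf factors in 1 and the CArG box of serum response factor in 1, against 0.12%, 3.2% and 1.5% of all windows; each motif was searched on both strands. A match describes letters in the window only.

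The genes around these enzymes were read from lists of the same pathways. Beside the counts below, 4.11% of all tested genes were higher in epithelium and 6.58% higher in muscle. The lists were not tested as sets. Of 30 tested genes of N-glycan assembly and trimming, none was higher in epithelium and 2 were higher in muscle, the oligosaccharyltransferase subunits Dad1 (log2 fold change -1.07) and Ostc (-1.06). Of 19 genes of sugar nucleotide synthesis, Gmds, the entry to GDP-fucose, was higher in epithelium (1.22, SE 0.21, adjusted p = 0.0068), and Ugp2, Nagk and Gnpnat1 were higher in muscle (-1.13, -0.98 and -0.90). Of 10 Golgi transporters, the UDP-N-acetylglucosamine transporter Slc35a3 was higher in epithelium (1.46, adjusted p = 0.048), at 14.8, 19.2 and 11.9 CPM against 3.80, 6.34 and 6.55 CPM in muscle. The CMP-sialic acid transporter Slc35a1 was higher in muscle, at 112, 87.9 and 111 CPM against 48.6, 48.7 and 60.5 CPM in epithelium (-0.98, SE 0.23, adjusted p = 0.026). Both transporters kept their groups apart, and both calls were lost when single libraries were left out, as high as adjusted p = 0.19 for Slc35a3 and 0.12 for Slc35a1.

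Among 27 other extension and capping enzymes, 2 were higher in epithelium and 3 in muscle. Ugt8a, which makes galactosylceramide, was at 2.05, 3.94 and 1.26 CPM in muscle and 41.4, 52.9 and 63.4 CPM in epithelium (log2 fold change 4.46, SE 0.45, adjusted p = 0.00060). Rfng, a Notch fringe enzyme, was also higher in epithelium (1.47). Ggta1, which makes the alpha-gal cap, was at 17.0, 37.9 and 33.0 CPM in muscle and 1.95, 6.82 and 2.93 CPM in epithelium (-2.93, SE 0.53, adjusted p = 0.0082), and Pofut2 (-1.21) and B3galnt1 (-1.20) were higher in muscle too. Of 12 sialidases and other glycosidases, 3 were higher in epithelium and 2 in muscle. Neu3, the plasma membrane sialidase of gangliosides, was at 6.08, 9.14 and 5.33 CPM in muscle and 50.1, 16 and 44.8 CPM in epithelium (2.44, SE 0.45, adjusted p = 0.0086). Epithelium 2 was the low one, still above muscle. Fuca2 (1.35) and Manba (1.18) shared that direction, and Hexa (-1.33) and Aga (-1.17) had the other.

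Of 11 sulfotransferases of terminal sugars, Chst7 was higher in epithelium (2.81), and Chst2 (-2.62) and Chst1 (-2.37) were higher in muscle. Of 18 mucins and mucin-like carriers, which bear the O-glycans, 4 were higher in epithelium and 1 in muscle. Muc1, a membrane mucin, was at 1.44, 3.84 and 2.30 CPM in muscle and 79.8, 31.9 and 89.4 CPM in epithelium (log2 fold change 4.74, SE 0.52, adjusted p = 0.00085). Muc5ac, a secreted airway mucin, was at 0, 0.599 and 0.0758 CPM in muscle and 5.07, 21.7 and 14.1 CPM in epithelium (5.97, SE 1.34, adjusted p = 0.021), a call lost without muscle 3, epithelium 2 or epithelium 3 (adjusted p from 0.060 to 0.080). Podxl (4.63) and Cd24a (1.59) were higher in epithelium as well, and Cd34 was higher in muscle, at 44.0, 79.6 and 79.5 CPM against 4.18, 7.55 and 5.30 CPM (-3.59, SE 0.36, adjusted p = 0.00057). Among 15 galectins and siglecs, which bind these glycans, 1 passed: galectin-1, Lgals1, was at 1019, 1530 and 1705 CPM in muscle and 61.6, 167 and 57.6 CPM in epithelium (-3.90, SE 0.48, adjusted p = 0.0014). Of the genes named from these lists, Dad1, Ostc, Ugp2, Nagk, Gnpnat1, Rfng, Pofut2, B3galnt1, Chst7, Chst1, Manba, Hexa and Aga also lost their call on leaving out at least 1 library.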

How the data were processed

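RNA of 3 muscle and 3 epithelium libraries was measured. The authors deposited whole-number counts per gene symbol. Per the labels' protocols, cells were dissociated with TrypLE for 15 minutes, RNA was extracted with Trizol, and libraries were made with SMART-Seq v4 and Nextera XT. In standard use these kits carry neither molecular identifiers nor strand. The submitters' processing notes list mm10, Trim Galore, Bowtie2, Cufflinks and DESeq; the counting program and annotation are not given in the sources used here. Of counts from 1 to 19, 73.8% to 79.6% per library were even, against 49.4% to 50.6% of counts of 100 or more.

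Groups follow the sample titles. Counts were filtered (filterByExpr), TMM-scaled and tested with edgeR 4.0.16 in R 4.3.3 (robust quasi-likelihood fit, no covariate, Benjamini-Hochberg adjustment over 19375 genes, threshold 0.05), after a check on simulated data; SE was derived from the F statistic. CPM used TMM-scaled totals of tested genes. DESeq2 1.42.0, other scalings, filters and left-out libraries were alternatives. Positions and exon lengths came from GENCODE M21 (GRCm38). Nothing says that the libraries came from separate litters, so p-values measure the spread between these libraries. Limits for counts of 0 (3 counts) cover counting error only and take counts as independent; as low counts were mostly even, these limits may be too low.

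Members and lists were chosen with earlier results of these data known. Named in full are members past the threshold and those with separate groups and a log2 fold change of 2 or more in either direction; of the rest, up to 3 per family by mean CPM; of the other lists, up to 3 called genes per direction by fold change with a mean log2 CPM of 2 or more. Cd24a, Mgat4b, B3galt4, St6galnac1, St6galnac2 and St6galnac5 were added after their values were seen. B3gnt3, Fut7 and St8sia3os had too few counts for a test.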

Additional observations from a re-analysis of the deposited data

How the results depend on the processing

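Of the 18 members past the threshold, 13 kept the direction and the call in each of 16 alternatives (Galnt16, Galnt2, Galnt3, B3gnt2, B3gnt7, Fut8, St3gal1, St3gal5, St6gal1, St6galnac4, St6galnac6, St8sia2 and St8sia4), and Gcnt2, B3gnt1, Fut10, St3gal4 and St6galnac3 kept the direction but lost the call in 1 or more. Of the 29 other named genes, 11 kept their call in each (Epcam, Actg2, Gmds, Ugt8a, Ggta1, Chst2, Fuca2, Muc1, Cd34, Lgals1 and Cd24a). Genes called over the whole table went from 2071 to 3549 with DESeq2, 983 at an adjusted p under 0.01, 3178 with the header identifier as a term (numbers that may be dates, 1 shared by muscle 2 and epithelium 2 and another by the other 4 libraries), and 1169 to 2573 with single libraries left out. Members higher in epithelium went from 5 to 10 with DESeq2 and stayed between 4 and 7 with single libraries left out. Members higher in muscle went from 13 to 20 with the header identifier as a term and from 9 to 16 with single libraries left out; the cause was not tested. Scaling by library size alone moved the median of all genes from 0.10 to 0.33 and the part of all calls that was higher in muscle from 61.5% to 42.0%, and of member calls from 72.2% to 65.0% (7 higher in epithelium and 13 in muscle). For all calls it was also 50.9% with genes under a mean log2 CPM of 2 left out, 50.3% without muscle 3 and 48.8% without epithelium 3.

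Directions reversed for 4 of 38 named members followed through the alternatives. The rest of the members, with Mgat4b, B3galt4, St6galnac1, St6galnac2 and St6galnac5 among them, were not followed one by one. B4galt3 was at 0.11 with library size alone and 0.012 with genes under a mean log2 CPM of 2 left out. B3galtl was at 0.058 with DESeq2 and with relative log expression factors, 0.19 with library size alone, 0.11 at that minimum, 0.21 with those 4 libraries only, and 0.19 without the 3 libraries with the most receptor gene counts, an alternative added after seeing the data whose lone epithelium library is assumed to vary like muscle; single libraries left out gave -0.16 to 0.10. St6gal2 was at 0.11, 0.023 and 0.31 with library size alone, that minimum and those 3 libraries left out, and ranged from -0.41 to 0.22 with single libraries left out. Mgat2 ranged from -0.091 to 0.58 with single libraries left out.

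Whether replicate numbers pair the libraries cannot be told from these values. Deviations of same-numbered libraries correlated at 0.59, 0.73 and -0.57. Muscle 2 also correlated with epithelium 3 at 0.63, and muscle 3 with epithelium 1 at 0.69. The positive values were those between libraries alike in receptor gene counts, so the sign cannot show shared embryos. With the replicate block, 5 members were higher in epithelium and 17 in muscle, and 2418 genes passed overall. B3gnt5, B4galt1, B4galt7 and Mgat1 passed with it (adjusted p = 0.029, 0.044, 0.018 and 0.038), and Slc35a3, Rfng, Neu3 and Podxl did not (0.066, 0.056, 0.051 and 0.065).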
